A study of Mus musculus with 6 samples.

Results

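The placental prolactin family genes Prl2c5, Prl8a2, Prl2c2, Prl2c3, Prl3b1, Prl3d1, Prl4a1, Prl7d1, Prl8a9 and Prl5a1 were followed in mouse embryos with and without Paraxis, the helix-loop-helix protein that the gene Tcf15 encodes and that newly forming somites need. These 10 genes were chosen on the measured ratio of Paraxis-/- over wild-type signal on these same arrays, so their ratios are given as a description and were not tested. Every probe named for a member was used, which gave 13 of the 41174 probes on the array. They covered 9 of the 10 genes. Prl2c2 had no probe of its own name, although its RefSeq accession is listed with all 3 Prl2c3 probes and with 1 of the 2 Prl2c5 probes. The filter on dim probes asked that 4 or more of the 6 measurements in a genotype stand well above background, in either genotype. It kept 8 member probes of 6 genes, out of 28415 probes of 19350 genes.

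The dissected tissue held anterior presomitic mesoderm and the newest somites, I to IV. It was taken at embryonic day 9.5 from Paraxis-/- and wild-type (WT) embryos, both labelled C57BL/6J. There were 3 pools of Paraxis-/- tissue and 3 pools of WT tissue, each made from 5 embryos. Each Paraxis-/- pool shared 2 Agilent arrays with a WT pool, with the Cy3 and Cy5 dyes exchanged on the second array. Pair A set Paraxis-/- pool A against WT pool A, pair B set Paraxis-/- pool C against WT pool B, and pair C set Paraxis-/- pool B against WT pool C. The labels do not describe the deleted part of the gene, and pooling hides any difference between embryos.

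The prolactin family of the mouse is a large cluster of genes that arose from the pituitary hormone gene Prl. Most of its members are secreted by the placenta, chiefly by trophoblast giant cells and spongiotrophoblast, and some by the decidua, the lining of the pregnant uterus. Their known roles include binding the prolactin receptor, keeping up the corpus luteum, growth of placental vessels and acting on maternal immune cells. They are not among the usual markers of paraxial mesoderm. In pools of tissue, fewer cells of a type and less RNA per cell cannot be told apart.

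The proliferins Prl2c3 and Prl2c5 are nearly identical, and their probes show how far the array can separate them. Probes of a gene are numbered here by their ratio in pair A, from the highest. Probe 1 of both genes covers the same stretch of the transcript. Of 54 aligned bases 52 are identical, and the others are 2 substitutions. A run of 6 bases is present only in the Prl2c3 probe. In the next lines, read from the scanner files, capitals mark the substituted and the extra bases.
Prl2c3 probe 1: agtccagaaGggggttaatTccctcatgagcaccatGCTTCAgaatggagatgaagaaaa
Prl2c5 probe 1: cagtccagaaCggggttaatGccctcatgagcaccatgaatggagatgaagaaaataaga
The Prl2c3 probe lies at chr13:12883352-12884285 on the minus strand of mm9, and the Prl2c5 probe at chr13:13282998-13283933 on the plus strand. Both intervals are longer than the 60 bases of the probe, so each probe crosses an intron. The file lists RefSeq accessions of Prl2c2 beside the first probe and of Prl2c1 beside the second. Signals of the proliferin genes are therefore uncertain as to which copy they came from.

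The other probes with large ratios were more distinct, apart from the Prl3d copies. The probe named for Prl3d1 has no RefSeq accession listed with it. The Prl8a2 probe lies at chr13:27445781-27445840 on the plus strand of mm9. The probe named for Prl3d2, a close copy of Prl3d1 outside the 10 genes, lies at chr13:27219216-27219275 on the plus strand. That probe is listed with accessions of Prl3d1, Prl3d2 and Prl3d3. All their letters are in lower case, since no base is singled out.
Prl8a2 probe: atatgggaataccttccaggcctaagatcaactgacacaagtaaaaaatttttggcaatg
Prl3d2 probe: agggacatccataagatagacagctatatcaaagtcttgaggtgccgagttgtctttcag

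The family signal was concentrated in Paraxis-/- pool A. In pair A, 7 probes of 5 member genes were between 9.88-fold and 37.1-fold higher in Paraxis-/- tissue, and those genes were Prl2c3, Prl2c5, Prl3d1, Prl4a1 and Prl8a2. For Prl8a2 and Prl4a1 the ratio is a lower bound. At that size of change the whole array held few genes, since 11 genes, or 0.0569% of those with a ratio in pair A, were at least 8-fold higher. The choice of members rests on this contrast, so the share is given beside the count and nothing is read from it. In pair B the same 7 probes lay between -0.16 and 0.48 on the log2 scale, with a median of 0.03. In pair C they lay between 0.13 and 0.59, with a median of 0.46, and all 7 were above 0. At the 8-fold threshold, Prl2c5 probe 2 was just inside with a log2 ratio of 3.30 in pair A. With arrays scaled to each other it fell outside, at 2.77. Outside it, Prl7d1 probe 1 and Prl2c3 probe 3 were at least 1.48-fold and 1.44-fold higher, with no signal well above background in WT pool A. Their ratios depend on the background correction, since the deposited ratios give log2 values of 3.37 and 2.85 for them. With those, Prl7d1 probe 1 would lie inside the threshold and Prl2c3 probe 3 would still lie outside it.

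**Figure D1:**
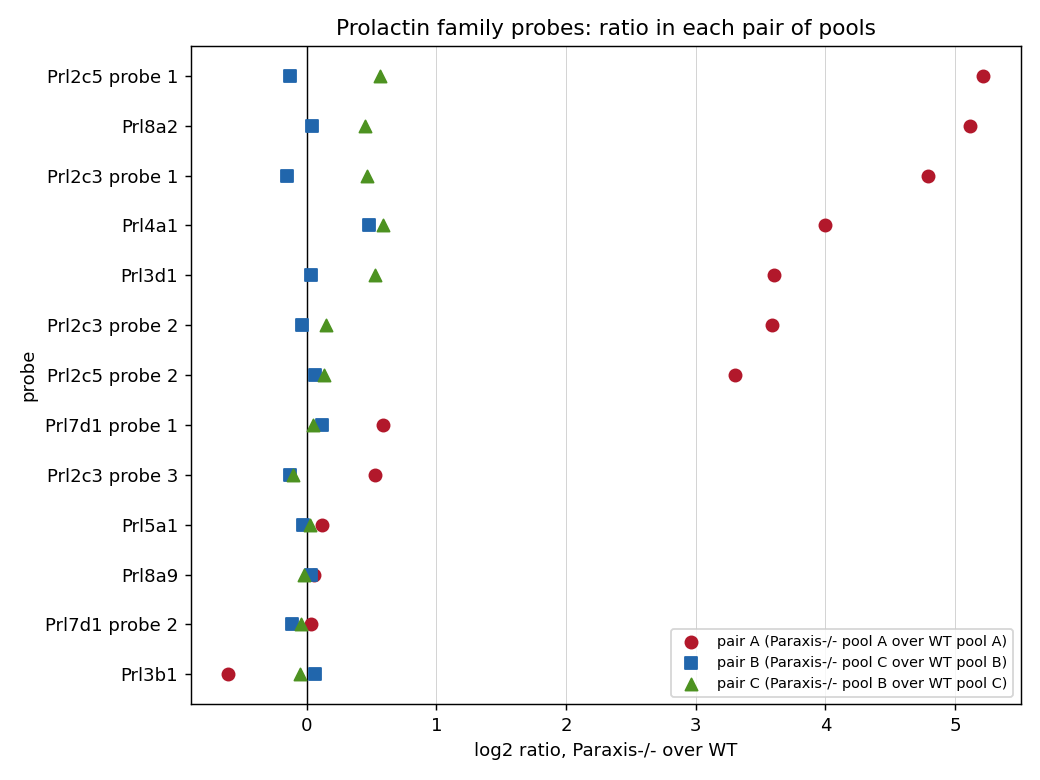
Log2 ratio of Paraxis-/- over WT (horizontal axis) for the 13 member probes (vertical axis) in each pair of pools, each point being the mean of both dye orientations. In pair A, 7 probes lie between 3.30 and 5.21 and the others between -0.60 and 0.59, with lower bounds for Prl8a2, Prl4a1, Prl7d1 probe 1 and Prl2c3 probe 3, whereas no probe goes beyond 0.59 in pairs B and C.

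Both proliferin genes were high in Paraxis-/- pool A. Proliferins are secreted glycoproteins of trophoblast giant cells that are known to promote growth of blood vessels. Prl2c5 probe 1 had log2 signals of 12.35, 8.16 and 8.26 in Paraxis-/- pools A, C and B, against 7.14, 8.29 and 7.70 in WT pools A, B and C. Paraxis-/- pool A stood far above the other 5 pools, and the other Paraxis-/- pools overlapped with the WT pools. Its ratio in pair A was 5.25 with Paraxis-/- RNA in Cy3 and 5.17 with it in Cy5, for a mean of 5.21 (37.1-fold). In pairs B and C the log2 ratio was -0.13 and 0.57. Over the 3 pairs the mean was 1.88 ± 2.91 (SD, n = 3 pairs), and over pairs B and C it was 0.22. The spread between pairs thus exceeded the mean.

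Prl2c3 probe 1 was also highest in Paraxis-/- pool A. It had log2 signals of 11.43, 7.35 and 7.67 in Paraxis-/- pools A, C and B, against 6.64, 7.51 and 7.21 in WT pools A, B and C. WT pool A was the lowest of the 6 pools and Paraxis-/- pool A the highest. The log2 ratios were 4.79, -0.16 and 0.46 in pairs A, B and C. For probe 2 of both proliferin genes, Paraxis-/- pool A was again the highest pool and WT pool A the lowest, while the order of the other pools differed. Prl2c3 probe 2 read 10.43, 7.20 and 7.22 in Paraxis-/- pools A, C and B, against 6.85, 7.24 and 7.08 in WT pools A, B and C. Prl2c5 probe 2 read 9.94, 7.05 and 6.99 in Paraxis-/- pools A, C and B, against 6.64, 6.98 and 6.86 in WT pools A, B and C. Their ratios in pair A were 3.59 and 3.30, both smaller than those of the brightest probes. Prl2c3 probe 3 was dim, well above background in both measurements of Paraxis-/- pool A and in no other, so that its ratio in pair A is only the bound given above. Probes 1 and 2 of Prl2c3, both well above background in every pool, gave ratios of 4.79 and 3.59.

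**Figure D2:**
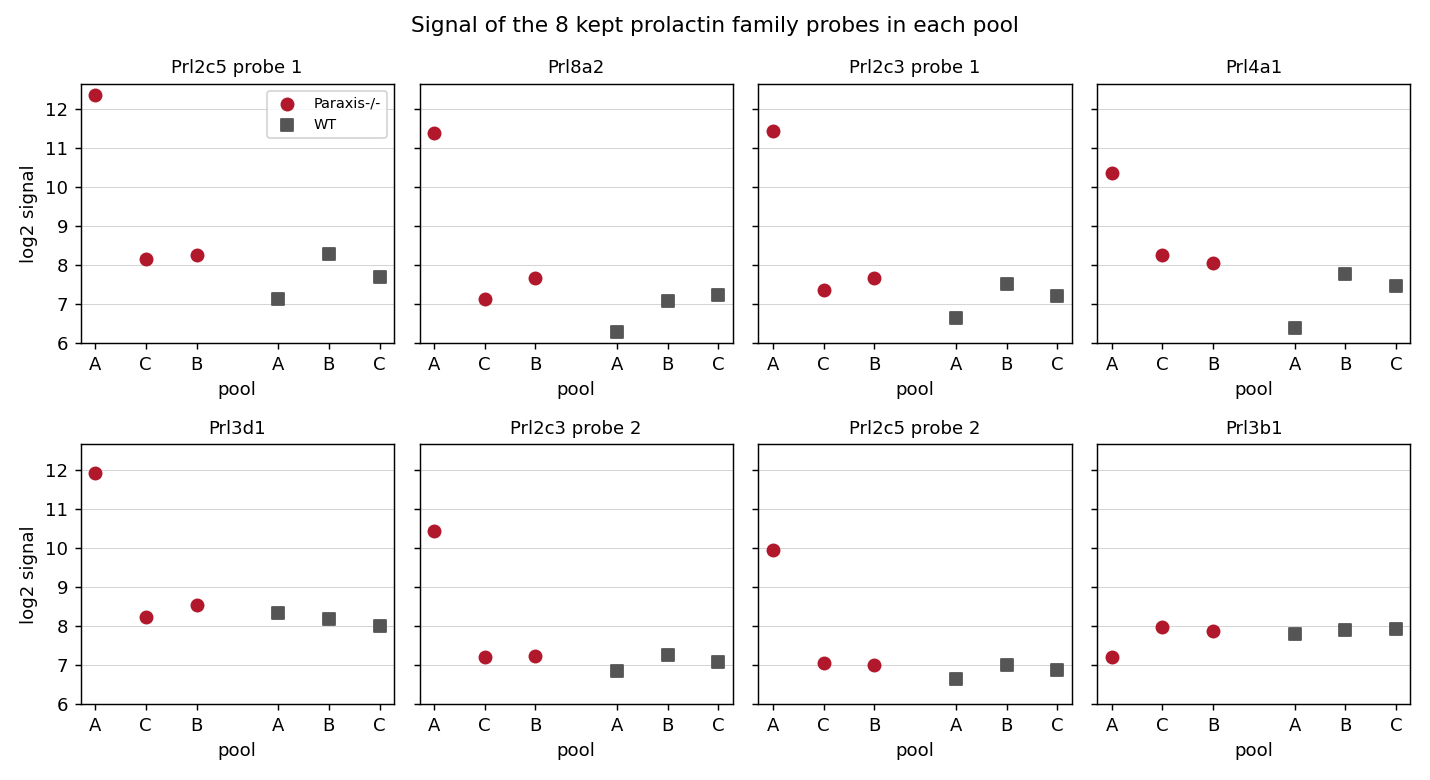
Log2 signal (vertical axis) of the 8 member probes kept by the filter in each pool (horizontal axis), with the 3 Paraxis-/- pools on the left as circles and the 3 WT pools on the right as squares. For 7 probes Paraxis-/- pool A lies between 9.94 and 12.35, above every other pool, while for Prl3b1 it is the lowest pool at 7.19.

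Prl3d1 and Prl3b1 encode the placental lactogens I and II, ligands of the prolactin receptor. Giant cells of the mouse make the first early in placental development and the second later. Prl3d1 had log2 signals of 11.93, 8.22 and 8.52 in Paraxis-/- pools A, C and B, against 8.32, 8.18 and 7.99 in WT pools A, B and C. Its log2 ratio was 3.61 in pair A (12.2-fold), while pairs B and C had 0.03 and 0.53. The arrays of pair A differed by dye more than for the other leading probes, with 3.36 and 3.86. Prl3b1 went the other way. It had log2 signals of 7.19, 7.95 and 7.87 in Paraxis-/- pools A, C and B, against 7.79, 7.89 and 7.92 in WT pools A, B and C. The probe was well above background in all 12 measurements, yet Paraxis-/- pool A was its lowest pool, and pairs A, B and C had log2 ratios of -0.60, 0.06 and -0.05. The placental lactogen genes thus had opposite directions in pair A.

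Prl8a2 encodes decidual prolactin-related protein, known from the mouse decidua. It had log2 signals of 11.40, 7.12 and 7.67 in Paraxis-/- pools A, C and B, against 6.29, 7.08 and 7.22 in WT pools A, B and C. WT pool A was not well above background on either array, so its signal there is only a bound. Paraxis-/- pool A was at least 34.6-fold higher than WT pool A. Such a bound sets the bright pool against the higher of the dim probe's own signal and the lowest signal among probes well above background. For Prl8a2 the probe's own signal was used. All such bounds hold for the main processing only, since arrays scaled to each other gave Prl8a2 a log2 ratio of 4.29 in pair A. In pairs B and C, where all pools were well above background, the log2 ratios were 0.04 and 0.45.

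Prl4a1 encodes prolactin-like protein A, a secreted trophoblast product. It had log2 signals of 10.37, 8.26 and 8.05 in Paraxis-/- pools A, C and B, against 6.37, 7.78 and 7.46 in WT pools A, B and C. All Paraxis-/- pools were above all WT pools, which held for 3.12% of the genes with a level in every pool, and nothing is read from that share for a gene chosen on this contrast. As WT pool A was not well above background, Paraxis-/- pool A was at least 15.98-fold higher. The log2 ratio of Prl4a1 was 0.48 in pair B, and in pair C it was 0.59. Dye orientation moved these ratios little, to 0.38 and 0.58 in pair B and to 0.49 and 0.68 in pair C.

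Prl7d1, Prl8a9 and Prl5a1 did not pass the filter. Prl7d1 encodes proliferin-related protein, which is known to restrain vessel growth. Its probe 1 was well above background only in Paraxis-/- pool A, at a log2 signal of 6.74 against 6.15 in WT pool A, so that Paraxis-/- pool A was at least 1.48-fold higher. Prl7d1 probe 2, the Prl8a9 probe and the Prl5a1 probe were well above background in none of their 12 measurements each. Their log2 ratios in pair A were 0.04, 0.06 and 0.12, and a low level of these transcripts would not have been detectable.

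Detection differed between the probes. Of the 8 probes kept, which the filter required to be detected in at least 2 pools of a genotype, 6 were well above background in every measurement of every pool. The other probes, for Prl8a2 and Prl4a1, missed only WT pool A. Prl7d1 probe 1 and Prl2c3 probe 3, which the filter removed, were detected in Paraxis-/- pool A alone. The mean log2 signal over the 6 genes kept was 10.78, 7.84 and 8.01 in Paraxis-/- pools A, C and B, against 7.09, 7.79 and 7.58 in WT pools A, B and C. In WT pool A this mean includes Prl8a2 and Prl4a1 at signals not well above background. WT pool A was the lowest pool and Paraxis-/- pool A the highest, and both lay on the same pair of arrays. Levels of pool A were measured on slide 1 and those of the other pools on slide 2. A difference between pool A and other pools of a genotype therefore cannot be told apart from a difference between slides, while the ratio within pair A does not cross slides.

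Other genes of the family were read from a list of 17, of which 14 had a probe. Prl3d2 had log2 signals of 11.14, 7.46 and 7.68 in Paraxis-/- pools A, C and B, against 6.75, 7.49 and 7.11 in WT pools A, B and C. Its log2 ratios of 4.39, -0.03 and 0.58 in pairs A, B and C were in the same order as those of Prl3d1, whose accession is also listed with this probe. Prl7a1, which encodes another prolactin-like protein, had 9.26, 6.63 and 6.69 in Paraxis-/- pools A, C and B, against 6.22, 6.55 and 6.41 in WT pools A, B and C. Paraxis-/- pool A was at least 8.21-fold higher than WT pool A for this gene. No WT pool was well above background, so no ratio is read in pairs B and C. Prl2a1 was dim, with a ratio of at least 1.73-fold in pair A. The remaining 13 probes, those for Prl, Prl2b1, Prl3a1, Prl3c1, Prl6a1, Prl7a2, Prl7b1, Prl7c1, Prl8a1, Prl8a6 and Prl8a8 among them, had log2 ratios between -0.15 and 0.20 in pair A and were at or near background. Of this list 2 genes passed the filter, and neither passed the test over all genes (limma, smallest adjusted p = 0.95).

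**Figure D3:**
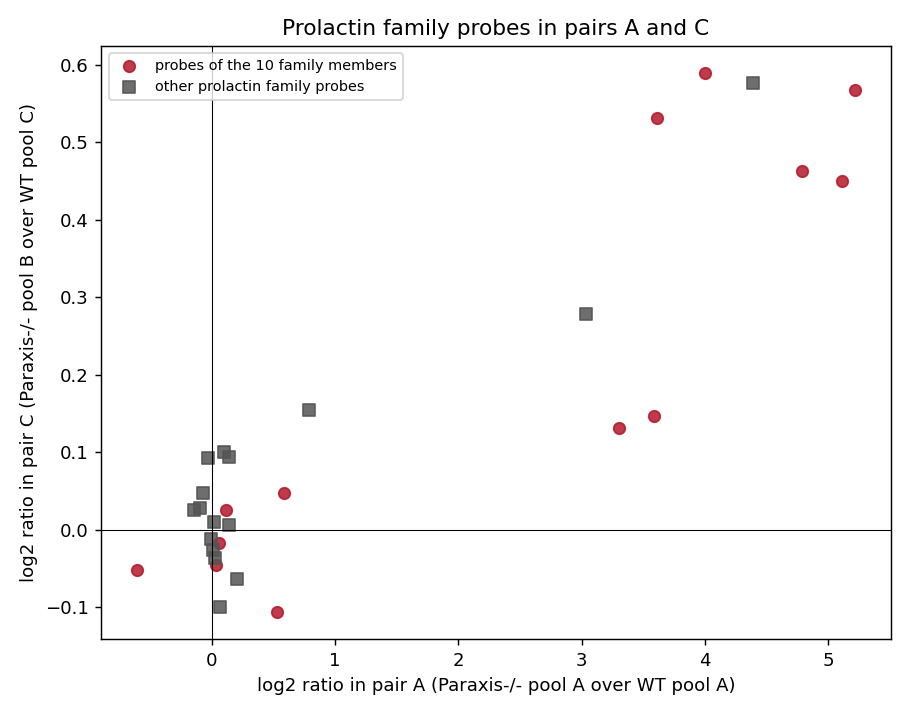
Log2 ratio of Paraxis-/- over WT in pair A (horizontal axis) and in pair C (vertical axis, on a narrower range) for each probe of the prolactin family, circles for the 10 member genes and squares for other family genes. The 9 probes with a ratio of at least 3.04 in pair A lie between 0.13 and 0.59 in pair C, the ratio of Prl7a1 being set against background in both pairs, and Prl3b1 lies lowest in pair A at -0.60.

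The whole family sits on mouse chromosome 13, with the proliferins apart from the rest. Upstream sequence was read from the RefSeq promoters of build GRCm38.p6, which hold 8 of the 10 members. The GATA motif AGATAA and the AP-1 motif TGANTCA were searched on both strands in 300 bases around each start, as factors of both families are known to act on placental lactogen and proliferin genes. The first motif was in the windows of Prl2c3, Prl2c5, Prl4a1 and Prl7d1, which is 4 of 8 members, and in 11.4% of all 27018 promoters. The second was in those of Prl2c3, Prl3d1 and Prl8a9, which is 3 of 8, and in 7.94% of all promoters. Members share ancestry, so these matches are not independent. Prl7d1 and Prl8a9, with a motif, were at or near background, so a match did not go with a high signal in each case. Prl2c3 and Prl3d1 are shown with the 250 bases before their start, as both were high in Paraxis-/- pool A and differ in motifs, which are in capitals.
Prl2c3, chr13:12800080-12800329, minus strand: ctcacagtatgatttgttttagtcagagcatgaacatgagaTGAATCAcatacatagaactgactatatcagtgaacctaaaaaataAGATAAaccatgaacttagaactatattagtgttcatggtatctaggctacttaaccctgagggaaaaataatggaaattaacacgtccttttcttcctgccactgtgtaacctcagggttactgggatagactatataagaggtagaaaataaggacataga
Prl3d1, chr13:27093939-27094188, plus strand: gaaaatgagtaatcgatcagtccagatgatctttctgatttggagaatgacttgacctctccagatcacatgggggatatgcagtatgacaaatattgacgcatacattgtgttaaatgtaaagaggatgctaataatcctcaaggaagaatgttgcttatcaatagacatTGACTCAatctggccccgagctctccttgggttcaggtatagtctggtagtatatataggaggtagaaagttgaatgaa

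Of the 11 genes at least 8-fold higher in pair A, 7 belonged to the family, namely Prl2c5, Prl8a2, Prl2c3, Prl4a1, Prl3d1, Prl3d2 and Prl7a1. The members among them were chosen on this contrast, and the proliferin and Prl3d probes do not fully separate their copies. Nothing is therefore read from the count. These 7 are given without order, because several ratios are only bounds. The others were Hbb-bt, an adult beta globin gene, at 4.72, Afp, the fetal plasma protein of the yolk sac, at least 20.3-fold higher, Nepn at 3.65 and Cdx2, a homeobox gene of the trophectoderm and of the posterior embryo, at 3.11. Afp and Nepn were not highest in Paraxis-/- pool A. Afp had 10.79, 11.30 and 10.23 in Paraxis-/- pools A, C and B, against 6.44, 9.72 and 10.43 in WT pools A, B and C, so for this gene WT pool A was the lowest, at a signal not well above background.

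The genes whose levels were most like the mean of the 6 detected members over the 6 pools were sought among 35 genes whose levels varied by an SD of at least 1 log2 unit. Pearson's r was 0.998 for Prl3d2, 0.995 for Prl7a1, 0.991 for Rhox6, 0.983 for Rhox9, 0.982 for Prap1 and 0.973 for Fabp4. The next were Hbb-bt at 0.872 and Cdx2 at 0.764. These values describe 6 points, of which 1 stood far from the rest for the members, and the pools share slides and arrays. The levels of Prl7a1 in all WT pools, and of Prl8a2 and Prl4a1 in WT pool A, were not well above background. Rhox6 and Rhox9 are X-linked homeobox genes known from the placenta. Rhox6 had 9.61, 7.25 and 7.49 in Paraxis-/- pools A, C and B, against 6.66, 7.46 and 7.37 in WT pools A, B and C, with WT pool A well above background on 1 of its 2 arrays. Rhox9 had 10.39, 7.48 and 7.81 in Paraxis-/- pools A, C and B, against 7.43, 7.70 and 7.70 in WT pools A, B and C. Prap1, a gene known from the pregnant uterus, had 10.43, 7.71 and 7.94 in Paraxis-/- pools A, C and B, against 7.66, 7.96 and 7.86 in WT pools A, B and C. In all 3, Paraxis-/- pool A was the highest pool and WT pool A the lowest, by a wider margin for Rhox6 than for Rhox9 and Prap1.

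Markers of other tissues around the embryo were read from lists beside the family. For trophoblast giant cells, 5 of 13 genes were tested, with median log2 ratios of 0.67, -0.06 and 0.01 in pairs A, B and C. Of the steroid hormone genes, Star was at 0.91 in pair A and Cyp17a1, measured there on 1 array only, at 0.73. The tested Cyp11a1 probe was at 0.67, and another Cyp11a1 probe, not well above background in any WT measurement, was at least 2.52-fold higher. A further Cyp11a1 probe was well above background in no measurement. The transcription factor gene Hand1 was at -0.05. The cathepsin gene Ctsm, well above background in 5 of 6 measurements of each genotype, was at -0.12. The other 7 cathepsins of the list, Cts3, Cts6, Cts7, Cts8, Ctsj, Ctsq and Ctsr, were well above background in no measurement. The summed log2 signal of that list was between 10.56 and 11.04 in Paraxis-/- pools, with pool A the highest, and between 10.57 and 10.67 in WT pools. For spongiotrophoblast, 7 of 20 genes were tested, and the median log2 ratio in pair A was 0.07, with Rhox6 and Rhox9 at 2.95 and 2.96. The other tested genes, Plac1, Psg17, Ascl2, Psg19 and Pcdh12, were at 0.26, 0.07, 0.04, -0.14 and -0.40 there. Tpbpa, its defining marker, was well above background in 3 of 6 Paraxis-/- and 0 of 6 WT measurements, and at least 1.20-fold higher in pair A. The summed log2 signal was between 11.08 and 11.92 in Paraxis-/- pools and between 11.12 and 11.17 in WT pools. It was highest in Paraxis-/- pool A, where Rhox9 and Rhox6 were the brightest genes of the list, at 10.39 and 9.61. For labyrinth and trophoblast stem cells, 4 of 10 genes were tested, with a median of 0.50 in pair A, and Tfap2c and Elf5 were at 0.79 and 0.62. Its sum lay between 10.37 and 10.53 in Paraxis-/- pools and between 10.15 and 10.33 in WT pools, and 3 genes, Gcm1, Synb and Eomes, were above background in no measurement. The part of trophoblast in the family's signal was not tested.

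Of the 18 genes of the decidua list, 11 were tested, with median log2 ratios of 0.27, 0.09 and 0.02 in pairs A, B and C. Pgr and Esr1, the hormone receptors of decidua, were well above background in no measurement, as was Gzmg. Gzmc of uterine natural killer cells was well above background in 6 of 6 Paraxis-/- and 3 of 6 WT measurements, and at least 1.43-fold higher in pair A. Hoxa11 was at -1.20, -0.25 and -1.32. The summed log2 signal was between 11.91 and 12.30 in Paraxis-/- pools, with pool A the lowest, and between 11.99 and 12.32 in WT pools. Its brightest genes, Cebpb, Wnt4 and Hoxa10, were lowest in pool A among Paraxis-/- pools, while Htra3, Cryab and Bmp2 were highest there. A sum led by a few bright genes does not measure the amount of decidua. The yolk sac list, with 15 of 16 genes tested, had medians of 0.46, 0.09 and 0.05 in pairs A, B and C. Rbp4 was at 1.42, 0.65 and 0.56 and Apob at 0.72, 0.25 and 0.16. Apom was at 0.58, 0.12 and 0.27, and Maob at -0.02, 0.34 and 0.54. Ttr was well above background in no measurement. The summed log2 signal of the list was between 13.19 and 13.31 in Paraxis-/- pools and between 12.03 and 12.97 in WT pools. Primitive blood genes, all 10 tested, had medians of 0.41, 1.01 and -0.13, so their highest median was in pair B. Hba-a1, Klf1 and Gata1 went the other way, with 1.07, 0.84 and 0.19 in pair A and 0.93, 0.74 and 0.16 in pair B. The sum over these blood genes lay between 17.30 and 17.90 in Paraxis-/- pools and between 16.55 and 17.31 in WT pools. Hbb-bh1, its brightest gene, was saturated in 3 of 12 measurements. Saturated gene spots were found only on the arrays of pair A, which limits the ratio and the sum there. The part of yolk sac, blood and decidua in the family's signal was not tested.

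**Figure D4:**
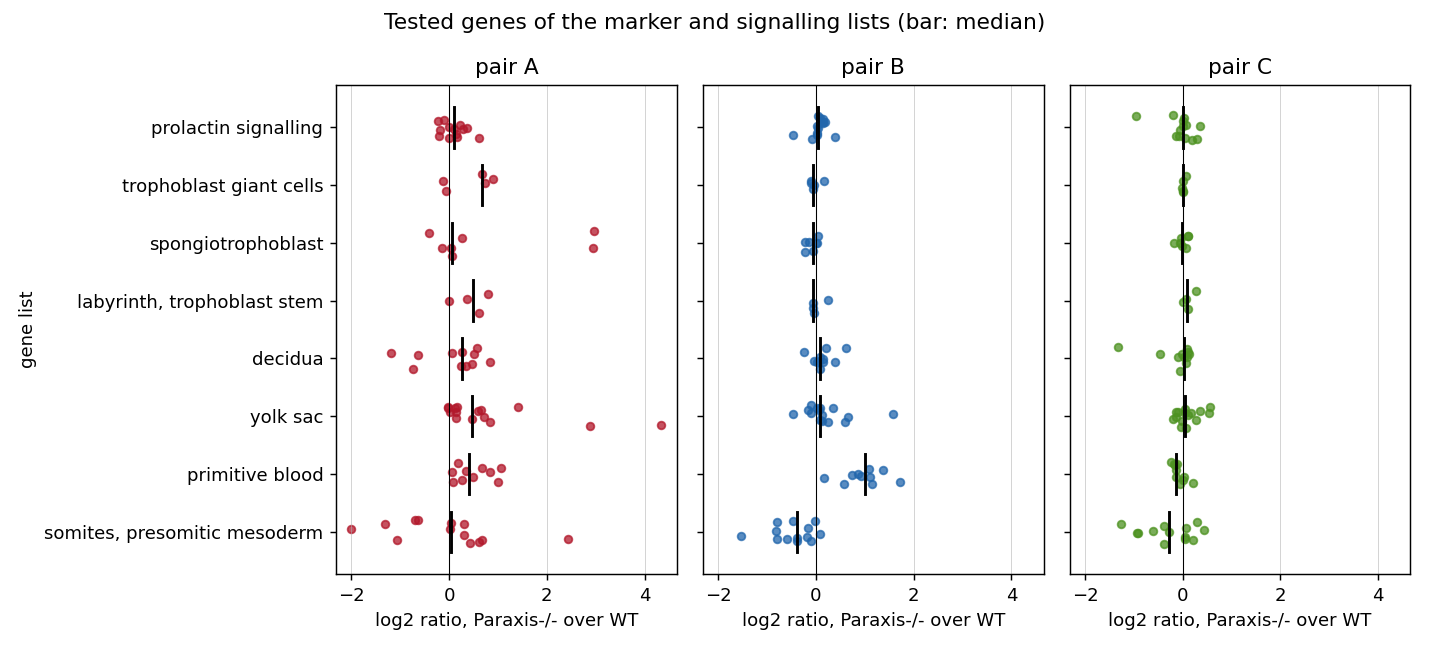
Log2 ratio of Paraxis-/- over WT (horizontal axis) of each tested gene of 8 lists (vertical axis) in pairs A, B and C, with a bar at the median. Rhox6 and Rhox9 in the spongiotrophoblast list lie at 2.95 and 2.96 in pair A, Afp in the yolk sac list lies at 4.34, which is a lower bound, and the primitive blood genes have their highest median, 1.01, in pair B.

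The labelled tissue was present in all pools. All 19 probes of the list for somites and presomitic mesoderm were detected in both genotypes. The dimmer Tbx18 probe was not well above background in Paraxis-/- pool A. The list's summed log2 signal lay between 15.53 and 16.07 in Paraxis-/- pools and between 15.87 and 15.99 in WT pools. Tcf15 itself had log2 signals of 9.81, 9.76 and 9.71 in Paraxis-/- pools A, C and B, against 15.04, 15.24 and 15.23 in WT pools A, B and C, so genotype and label matched in all 6 pools. The 4 genes of this list with the smallest p, Meox2, Uncx, Tbx18 and Aldh1a2, were below 0 in every pair, with mean log2 ratios of -1.59, -0.78, -1.02 and -0.82, and none passed the threshold. Tbx6, a marker of presomitic mesoderm, had log2 ratios of 2.43, -0.59 and 0.22 in pairs A, B and C. WT pool A had the lowest Tbx6 signal, 10.03, whereas the other WT pools had 12.69 and 12.68 and the Paraxis-/- pools between 12.10 and 12.90.

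Genes that receive and pass on prolactin signals had ratios close to those of all genes. Of a list of 15, 13 were tested, with median log2 ratios of 0.10, 0.04 and 0.02 in pairs A, B and C, and none was at least 2-fold higher in pair A. Over all genes 0.745% were. The receptor gene Prlr had 7.12, 7.20 and 7.34 in Paraxis-/- pools A, C and B, against 7.11, 7.27 and 7.28 in WT pools A, B and C. Those were the signals of its brightest probe, whose log2 ratios were 0.01, -0.07 and 0.06. The other Prlr probes were well above background in no measurement. Jak2, Stat3 and Stat5b, which carry the signal from the receptor, had mean log2 ratios of 0.18, 0.11 and 0.13, and the inhibitor gene Socs3 had -0.38 ± 0.52 (SD, n = 3 pairs). Its log2 ratios were -0.22, 0.03 and -0.96 in pairs A, B and C. None of these lists had a gene past the threshold. The smallest adjusted p was 0.95 for the signalling list and 0.20 for the somite list (limma, Benjamini-Hochberg over 19350 genes, n = 3 pairs).

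Over all genes, 4 passed an adjusted p of 0.05 in limma, or 0.0207% of the genes tested. Of these, 2 were higher (0.0103%) and 2 were lower (0.0103%) in Paraxis-/- tissue. With p-values left unadjusted, 451 were higher and 527 lower at 0.05. The 6 members with a tested probe had a median log2 ratio of 1.69 over the 3 pairs, where all genes had 0.00. That median was 0.23 without pair A, 2.46 without pair B and 2.28 without pair C. Pairs A, B and C had medians of 4.39, 0.04 and 0.50, with Prl8a2 and Prl4a1 at their lower bounds in pair A. The size of the family's mean difference therefore came from 1 pair, that is, from 1 pool of each genotype. The members share probes, accessions and a cluster and are not replicates of the genotype. Of 43379 gene spots per array, the Paraxis-/- channel had 28683 to 31795 well above background, and the WT channel 27080 to 30982. With 3 pairs, the precision of all values here is low.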

How the data were processed

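Scanner files of 6 two-colour Agilent arrays were used. Per the file headers, the authors read spot intensity with Agilent Feature Extraction, version 10.7.3.1 on slide 1 and 10.5.1.1 on slide 2, while the submitters' processing notes name 8.5.1.1. The deposited value table holds log10 ratios of Cy5 over Cy3 that differ from the scanner's by at most 5e-11. Per the labels' protocols, 250 ng of total RNA with an integrity number of at least 7.9 was labelled.

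Median intensities were corrected for median local background with normexp (offset 50, which pulls ratios of dim probes toward 0) and by loess per array (R 4.3.3 with limma 3.58.1; files were read with the data.table package, version 1.17.8). Control spots (1639 per array) had no weight, and outlier spots (438 to 620) were left out. Ratios were turned to Paraxis-/- over WT by the dyes in the labels, and both arrays of a pair were averaged. A level is a log2 signal taken after loess and Aquantile. The brightest kept probe stood for a gene in lmFit and eBayes on 3 pair ratios, two-sided, with Benjamini-Hochberg adjustment, and 18 genes had fewer than 3 pairs. The fit was tested on simulated data. For 2 arrays the titles name other pools than the descriptions do, and titles decided. Dye-swapped arrays that titles place together deviated together (r of 0.42, 0.63 and 0.63, others at most -0.12). Names were updated through RefSeq GRCm38.p6, by accession for 26690 probes, by symbol for 5189 and by synonym for 952, while 8343 kept the file's name. Probe coordinates are those of mm9 in the files, with no exon annotation.

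Members and lists were chosen with earlier results of these data known. Named genes were Tcf15, all family genes with a probe, in each list the 4 genes of smallest p at most, and up to 8 genes most like the members. Other genes named, such as Afp, Nepn, Tbx6, Hand1, Tpbpa and the undetected markers, were chosen after their values were seen. Alternatives changed the background correction, scaling, filter, probe choice, pairing and blocking, or used the deposited ratios.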

Additional observations from a re-analysis of the deposited data

How the results depend on the processing

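The 3 pairs, 1 of which carried the family's high ratios, limit every value. The count of 4 genes past the threshold became 7 with a normexp offset of 0, 18 with arrays scaled to each other (4 higher and 14 lower) and between 0 and 2 when a pair was left out. Taking the 6 arrays as independent, with no replicate block, gave 69 genes, which treats dye swaps as replicates. A slide block (a term for slide over the 6 arrays, with pairs as a random effect) gave 555. Slide 1 holds only pair A, so slide and pair cannot be told apart. Among the other family genes the count was 0, and 2 with the slide block. Among the marker and signalling lists it was 0, but 2 with scaled arrays, 4 with no replicate block and 16 with the slide block. The cause of these changes was not tested. The members' median log2 ratio lay between 0.23 and 2.46 when a pair was left out and between 1.47 and 2.37 under the other settings. In pair A, Prl8a2 lay between 4.29 and 9.21, Prl4a1 between 3.35 and 7.21, Prl2c5 probe 1 between 4.37 and 6.25, Prl7d1 probe 1 between 0.50 and 3.37 and Prl2c3 probe 3 between 0.45 and 2.85, each highest with the deposited ratios and Agilent's processed signals. Prl3b1 lay between -1.21 and -0.51 there. No member probe kept by the filter changed sign in pair A. Prl8a9 and Prl7d1 probe 2 were at 0 there with the deposited ratios. No sign is read for these probes or for Prl5a1, which were well above background in no measurement.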
